A study of Mus musculus with 16 samples.

Results

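The mitochondrial carriers of the Slc25 family were described in 16 mouse brain libraries. Members were all gene symbols of the count tables that begin with Slc25a followed by a number, which gave 47 genes of 43472 symbols; the pseudogene Slc25a5-ps, which had 0 reads, was left out. The libraries formed 4 groups of 4: Prepl knockout mice, their own wild types, mice with the PWS-IC deleted, and their own wild types. Prepl encodes a serine hydrolase, missing in people with congenital myasthenic syndrome-22, and the PWS-IC is the imprinting centre that keeps the paternal genes of the Prader-Willi region active. The study asked whether the 2 models share molecular changes. The labels give the tissue (brain) and the genotype; strain, age, the alleles themselves, the parent that passed on the deletion and whether each library is a separate animal were not stated in the sources used. The p-values therefore reflect the spread among libraries, part of which may be technical. By Xist and Y-linked genes, each group except the Prepl knockouts held both sexes, so its libraries did not all come from the same animal.

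Mitochondrial carriers are small proteins that sit, with few exceptions, in the inner mitochondrial membrane and exchange nucleotides, phosphate, organic acids, amino acids and cofactors between the cytosol and the matrix. Carriers are built from similar repeats and encoded in the nucleus, and those of the inner membrane reach it through the TIM22 import complex. In the brain, the ADP/ATP carriers pass newly made ATP to the cytosol, the aspartate-glutamate carrier of neurons is part of the malate-aspartate shuttle that moves reducing power into mitochondria, and the citrate carrier feeds lipid synthesis.

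RNA was read from the 3' ends of poly(A) transcripts (Lexogen QuantSeq), so a count does not grow with transcript length. Levels of different genes are set side by side on that basis. They still depend on unique alignment and on annotated 3' ends. Per library, 25.2% to 30.9% of tabled reads did not align uniquely and 11.4% to 20.1% lay outside genes. Levels are given as CPM, read counts scaled to 1000000 reads in genes per library. Reads in genes numbered 3477624 to 5852716 per library, of which 9119 to 15202 fell on the family. Prepl itself measured 1.17 to 2.18 CPM in the knockouts, against 33.6 to 36.5 CPM in their wild types; Ndn, a paternally expressed gene of the Prader-Willi region, measured 2.17 to 6.56 CPM in the PWS-IC deleted libraries, against 543 to 566 CPM in theirs. Xist and Y-linked genes showed 4 males among the Prepl knockouts and 1 male among their wild types, with 2 males in each PWS-IC group. The libraries carried neuron markers (5 genes summing to 911 to 1402 CPM) and astrocyte markers (5 genes summing to 727 to 1029.6 CPM).

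A single member dominated the family. Slc25a4, the ADP/ATP carrier of heart, muscle and brain also called Ant1 (chromosome 8, 46206797 to 46211284, minus strand, GRCm38), averaged 1147.5 CPM over the 16 libraries and held 45.3% of all family reads. Slc25a3, the carrier that brings in phosphate for ATP synthesis, averaged 300.03 CPM, and Slc25a5, the ADP/ATP carrier also called Ant2 (chromosome X, 36795651 to 36798807, plus strand), averaged 109.8 CPM. These 3 genes of energy exchange held 61.6% of family reads. The coding sequences of Slc25a4 and Slc25a5 have 897 bases each and are 77.5% identical, and the last 300 bases of their transcripts, where the reads lie, share no stretch of at least 100 bases at 95% identity.

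The promoters of these ADP/ATP carriers are shown as sequence only. Slc25a4 was called in 1 comparison and Slc25a5 was not, but their changes were not tested against each other, and no link to the promoters was tested. Each is the RefSeq window of GRCm38.p6 from 250 bases before to 50 after the transcript start, and capitals mark the letters GGGCGG (GC box), CCAAT and TATAAA on either strand; Slc25a4 is chr8:46211013-46211312 on the minus strand and Slc25a5 chrX:36795347-36795646 on the plus strand.
Slc25a4: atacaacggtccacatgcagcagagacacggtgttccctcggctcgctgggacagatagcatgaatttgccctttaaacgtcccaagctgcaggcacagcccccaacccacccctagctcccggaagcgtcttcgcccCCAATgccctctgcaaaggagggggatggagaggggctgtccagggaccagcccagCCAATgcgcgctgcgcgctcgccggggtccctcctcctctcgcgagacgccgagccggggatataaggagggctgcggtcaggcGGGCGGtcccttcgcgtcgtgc
Slc25a5: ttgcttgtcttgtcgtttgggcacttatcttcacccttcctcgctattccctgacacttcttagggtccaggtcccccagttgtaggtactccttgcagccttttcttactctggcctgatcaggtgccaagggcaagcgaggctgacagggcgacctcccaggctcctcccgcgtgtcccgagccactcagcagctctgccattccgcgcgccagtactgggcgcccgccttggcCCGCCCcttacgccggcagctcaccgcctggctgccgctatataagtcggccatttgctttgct
The Slc25a4 window holds a pair of CCAAT boxes and a GC box, and the Slc25a5 window a GC box on the opposite strand. Of the 47 members, 36 had promoters in the RefSeq table, 46 windows in all. GGGCGG occurred in 82.6% of the member windows, against 35.7% of all 32851 windows. CCAAT occurred in 47.8% of member windows and 37.4% of all windows, and TATAAA in 4.35% of member windows and 13.6% of all windows. TCAAGGTCA, an element of the oestrogen-related receptors, occurred in 0 of 46 member windows and 0.423% of all windows. These matches are descriptions of letters, not of bound sites. RefSeq starts, used for the windows, differ from the GENCODE gene coordinates given above. The Slc25a5 window ends at 36795646, before the GENCODE start of 36795651. Most of the Slc25a4 window lies inside the GENCODE gene, which ends at 46211284.

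Below the leading 3, levels ran on without a gap. Slc25a51, which carries NAD+ into mitochondria, averaged 91.0 CPM; Slc25a23, a calcium-regulated ATP-Mg/phosphate carrier, 88.6 CPM; Slc25a12, the aspartate-glutamate carrier of neurons also called Aralar, 78.2 CPM; Slc25a44, a carrier of branched-chain amino acids, 71.0 CPM; and Slc25a36, a pyrimidine nucleotide carrier, 61.5 CPM. The 8 most abundant members held 77.0% of family reads. Slc25a4 was above Slc25a3, and Slc25a3 above Slc25a5, in 16 of 16 libraries with no overlap, whereas from Slc25a5 downwards each member's range over the libraries overlapped that of the next among the 21 most abundant members. Of the 47 members, 20 varied less than 2-fold between the lowest and the highest of the 16 libraries.

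**Figure D1:**
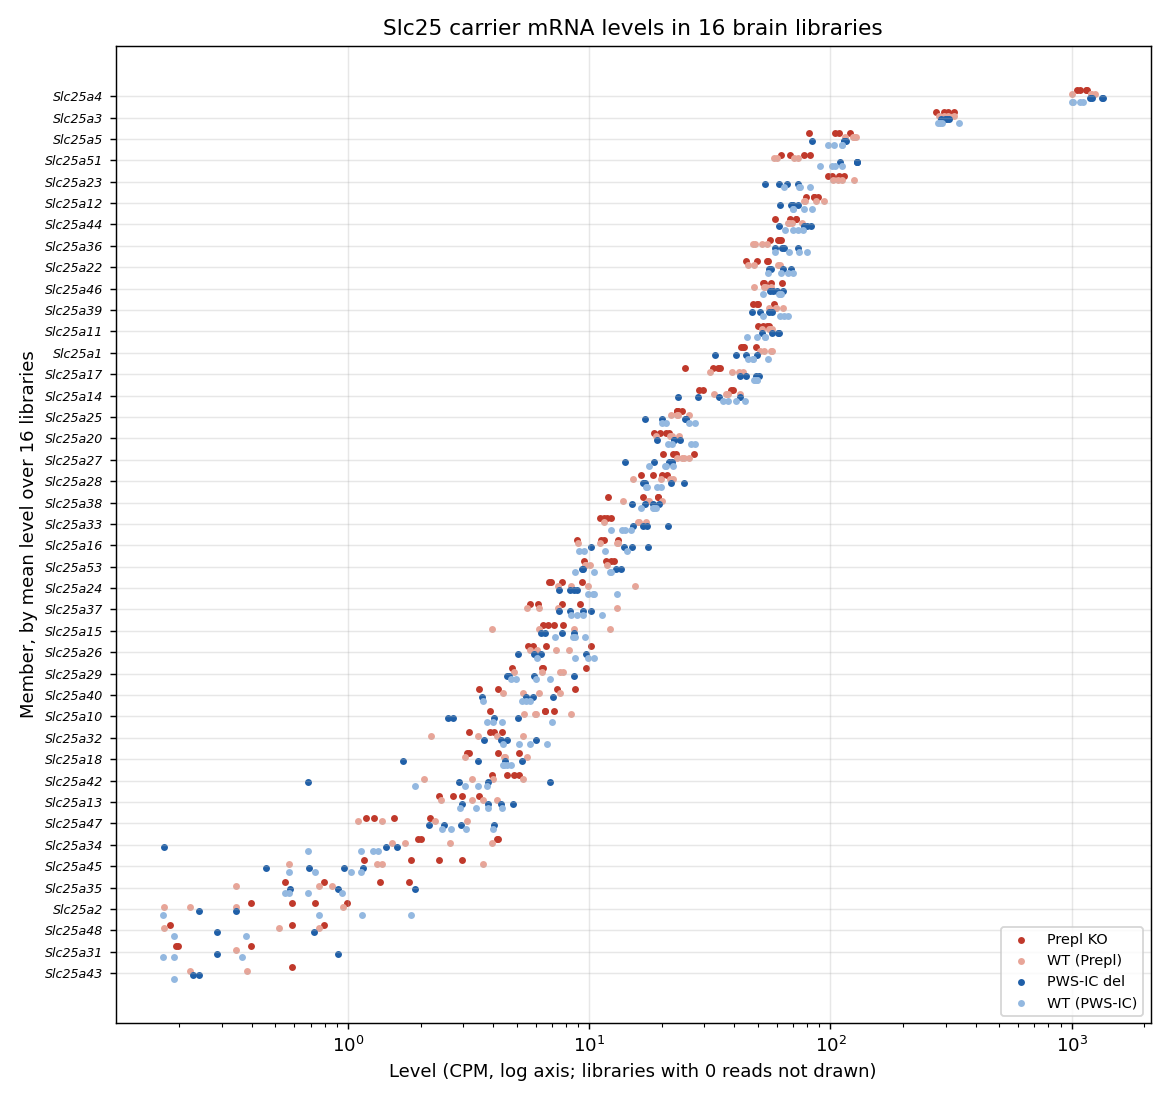
CPM on a log axis for 42 of the 43 members with a mean of at least 0.1 CPM over 16 libraries, most abundant first; points are libraries, coloured by group, and libraries without a read are not drawn. Slc25a4 stands near 1147.5 CPM and Slc25a3 near 300.03 CPM, each with a range apart from that of the next member. From Slc25a5 downwards the members follow without a gap.

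Paralogues with similar substrates differed in level. Slc25a13, the aspartate-glutamate carrier of liver (citrin), averaged 3.46 CPM, far below its brain counterpart Slc25a12. Slc25a22, a glutamate carrier, averaged 57.5 CPM and its paralogue Slc25a18 4.13 CPM; at its 3' end Slc25a18 lies on the strand opposite Atp6v1e1, which had 19035 reads in all, and the strand setting of the counting is not given, so the Slc25a18 value is uncertain. The same holds for Slc25a26, a carrier of S-adenosylmethionine with 7.35 CPM, which overlaps Lrig1 (1270 reads). Slc25a36 had 61.5 CPM and the other pyrimidine nucleotide carrier, Slc25a33, averaged 14.5 CPM over 16 libraries.

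Less abundant carriers, given by role rather than by the size of a change, were each present in every library. Slc25a20, which brings acylcarnitines to fatty acid oxidation, averaged 21.96 CPM (18.5 to 27.4 over 16 libraries), and Slc25a25, a calcium-regulated ATP-Mg/phosphate carrier, 23.1 CPM (17.1 to 27.4). Slc25a27, related to the uncoupling proteins and expressed mainly in brain, averaged 21.8 CPM (14.1 to 27.2). Among carriers of iron, Slc25a28 (mitoferrin of tissues at large) averaged 19.3 CPM, above Slc25a37 (mitoferrin of red-cell precursors), which averaged 8.40 CPM with a highest library of 13.04 CPM; their ranges did not overlap. Slc25a38, a glycine carrier needed for haem synthesis, averaged 17.4 CPM. Slc25a15, an ornithine carrier of the urea cycle, averaged 7.65 CPM, Slc25a29, a carrier of basic amino acids, 6.26 CPM, Slc25a40, a glutathione carrier beside Slc25a39, 5.58 CPM, Slc25a10, the dicarboxylate carrier, 5.21 CPM, and Slc25a32, a carrier of folate and FAD, 4.44 CPM.

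At the low end, 11 members failed the expression filter in the Prepl comparison and 11 in the PWS-IC comparison. Slc25a54 had 0 reads in 16 libraries. Total reads over the 16 libraries were 2 for Slc25a30, 4 for Slc25a41, 5 for Slc25a21, 9 for Slc25a43, 15 for Slc25a31, 23 for Slc25a48, 47 for Slc25a2, 66 for Slc25a35 and 114 for Slc25a45. Slc25a31 is the ADP/ATP carrier of male germ cells in mouse, and Slc25a2 is an ornithine carrier. Slc25a34 (153 reads) passed the filter in the Prepl comparison and Slc25a47 (193 reads), a gene expressed mainly in liver, in the PWS-IC comparison. The 10 members that passed in neither comparison were not tested in the main fits, so nothing is said of differences in them.

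In Prepl knockout brain no carrier was called. Genes were called with edgeR's quasi-likelihood test at a Benjamini-Hochberg adjusted p under 0.05 over all genes tested, and log2 fold changes are given with their SE and 95% intervals. Of the 36 members tested, 0 passed, where 36 of all 13722 genes tested passed (0.262%). At an unadjusted p under 0.05, 1 member was higher and 4 were lower, 13.9% of the members against 9.43% of all genes (4.92% higher and 4.51% lower). DESeq2 and limma voom also called 0 members. Log2 fold changes of the members ran from -0.39 to 0.40 with a median of -0.02, against a median of 0.0003 for all genes, and 15 of 36 (41.7%) were above 0, against 50.1% of all genes.

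None of the cargo classes held a called member, where 0.262% of all genes tested were called. Across all genes tested, 50.1% had a log2 fold change above 0. Log2 fold changes were above 0 in 2 of 6 tested carriers of ADP, ATP and phosphate, 1 of 6 carriers of the aspartate, glutamate and malate shuttles, 2 of 5 tricarboxylate, oxoacid and amino acid carriers, 6 of 10 carriers of carnitine, cofactors and nucleotides, 1 of 4 carriers of iron, copper and glutathione, and 3 of 5 uncoupling-like and other members.

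The abundant energy carriers had narrow intervals in the Prepl comparison. Slc25a4 measured 1078, 1054, 1153 and 1141 CPM in the 4 knockouts, against 1000.03, 1202, 1196 and 1246 CPM in their wild types. The knockouts lie inside the wild-type range only through wild-type library 1, since the other wild types all lie above every knockout. The log2 fold change was -0.03 (95% interval -0.18 to 0.11, edgeR adjusted p = 0.926, n = 4 each). Slc25a3 averaged 300.1 ± 21.8 CPM in knockouts and 302 ± 17.98 CPM in wild types (SD, n = 4 each), a log2 fold change of 0.03 (95% interval -0.12 to 0.17, edgeR adjusted p = 0.944). Of the 36 members, 20 (55.6%) had an interval that lay within -0.5 to 0.5, as did 61.3% of all genes.

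Both pyrimidine nucleotide carriers were among the members with the smallest p, with opposite signs. Slc25a36 (chromosome 9, 97074961 to 97111157) measured 60.8, 56.0, 62.3 and 61.3 CPM in knockouts, against 52.2, 48.6, 47.6 and 54.7 CPM in wild types. The groups did not overlap, and the log2 fold change was 0.28 ± 0.0884 (edgeR unadjusted p = 0.00392, adjusted p = 0.249). Slc25a33 (chromosome 4, 149744036 to 149774277) measured 11.9, 11.1, 12.3 and 11.5 CPM in knockouts, against 11.5, 16.02, 15.9 and 17.1 CPM in wild types. Wild-type library 1 lay within the knockout range, and the log2 fold change was -0.34 ± 0.161 (edgeR adjusted p = 0.516).

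Slc25a1, the citrate carrier (chromosome 16, 17925223 to 17928219), measured 42.5, 43.5, 49.3 and 43.7 CPM in knockouts, against 52.8, 50.98, 56.9 and 57.0 CPM in wild types. Every knockout was below every wild type, and the log2 fold change was -0.25 ± 0.0933 (edgeR unadjusted p = 0.0144, adjusted p = 0.388). Groups without overlap were thus found for 2 of 36 members (5.56%), against 5.69% of all genes. Slc25a5 measured 81.2, 108, 119.9 and 105 CPM in knockouts, against 115, 128, 124 and 125 CPM in wild types, with a log2 fold change of -0.21 ± 0.0920 (edgeR adjusted p = 0.476); knockout library 3 overlapped the wild types. Slc25a17, a peroxisomal carrier of CoA, FAD and NAD+, averaged 31.6 ± 4.56 CPM in knockouts and 38.99 ± 5.18 CPM in wild types (SD, n = 4 each; edgeR adjusted p = 0.506). Slc25a39, which brings glutathione into mitochondria, averaged 51.5 ± 4.73 CPM in knockouts and 59.5 ± 3.25 CPM in wild types (edgeR adjusted p = 0.555).

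The other members with the smallest p among positive values were Slc25a51 (0.18, edgeR adjusted p = 0.577), Slc25a46, an outer membrane protein of mitochondrial fission and fusion (0.12, adjusted p = 0.720), Slc25a53 (0.19, adjusted p = 0.779) and Slc25a42, a CoA carrier (0.40, adjusted p = 0.712), all as log2 fold changes. Sex moved with the genotype in this comparison. With sex as a term, fitted from the single male wild type, the log2 fold change was 0.17 for Slc25a36, -0.52 for Slc25a33, -0.43 for Slc25a17, 0.35 for Slc25a51, -0.14 for Slc25a4 and -0.32 for Slc25a1, with an edgeR adjusted p of 0.999 for each. Slc25a5, Slc25a14, Slc25a43 and Slc25a53 lie on the X chromosome. In knockouts, messenger RNA of the mitochondrial genome made up 7.74% ± 0.742 of reads in genes (SD, n = 4). Their wild types gave 5.99% ± 0.110 (SD, n = 4). Neuron markers summed to 1110 to 1160 CPM in knockouts and 1194 to 1402 CPM in wild types, with 0 of 5 called. Red-cell markers summed to 628 to 833 CPM in knockouts and 660 to 1145 CPM in wild types, with 1 of 5 called lower. The other marker lists named below held 0 called genes, where 0.262% of all genes were called. The part of these measures in the values above was not tested.

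In PWS-IC deleted brain, the ADP/ATP carrier Slc25a4 was the 1 member called. It measured 1330.0, 1353, 1211 and 1187 CPM in the deleted libraries, against 1083, 998, 1015 and 1112 CPM in their wild types. The lowest deleted library stood above the highest wild type. Slc25a4 rose by a log2 fold change of 0.28 ± 0.0768 (95% interval 0.12 to 0.44, edgeR unadjusted p = 0.00165, adjusted p = 0.0415, n = 4 each), to a mean of 1270.4 ± 83.2 CPM in deleted libraries, against 1052 ± 53.999 CPM in wild types (SD). The call held in 10 of 10 other settings (adjusted p 0.00849 to 0.0428) but in 1 of 8 fits that left out a library, that without deleted library 4; leaving out any of the other 7 gave an adjusted p of 0.0506 to 0.135, and log2 fold changes over the 8 fits were 0.24 to 0.32.

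**Figure D2:**
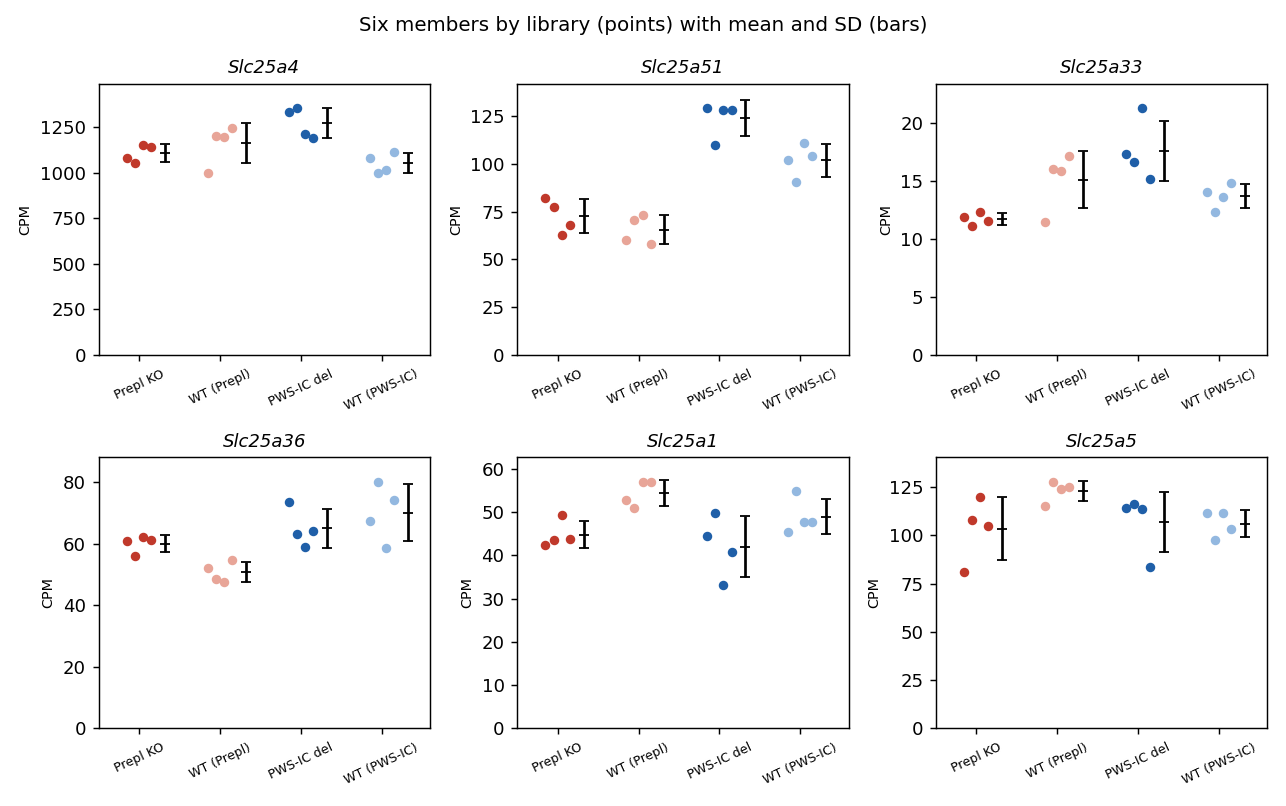
CPM of 6 members in each library (points) with the group mean and SD (bars), each mutant beside its own wild types. Slc25a4 lies at 1187 to 1353 CPM in PWS-IC deleted libraries, above their wild types at 998 to 1112 CPM.

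A count of 1 called member of 36 (2.78%) stands beside 616 of 13636 genes called in this comparison (4.52%, with 2.96% higher and 1.55% lower). At an unadjusted p under 0.05, 3 members were higher and 0 lower, 8.33% of the members against 18.2% of all genes (9.97% higher and 8.24% lower). Groups did not overlap for 3 members (8.33%), against 11.8% of all genes. Log2 fold changes of the members ran from -0.42 to 0.36 with a median of -0.06, against -0.01 for all genes, and 16 of 36 (44.4%) were above 0, against 47.6% of all genes. By cargo, log2 fold changes were above 0 in 3 of 6 tested carriers of ADP, ATP and phosphate, 2 of 6 of the aspartate, glutamate and malate shuttles, 2 of 6 of tricarboxylates, oxoacids and amino acids, 5 of 10 of carnitine, cofactors and nucleotides, 2 of 4 of iron, copper and glutathione, and 2 of 4 other members.

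No other carrier of ADP, ATP or phosphate was called, and Slc25a5 and Slc25a3 gave values near 0. Slc25a5 measured 114, 116, 114 and 83.7 CPM in deleted libraries, against 112, 97.5, 112 and 103 CPM in wild types. Deleted library 4 was the lowest of the 8, whereas the other deleted libraries lay above every wild type. The log2 fold change was 0.01 (95% interval -0.20 to 0.23, edgeR adjusted p = 0.965), and -0.04 to 0.13 over the fits without a library. Slc25a3 averaged 300.3 ± 9.86 CPM in deleted libraries and 298 ± 28.4 CPM in wild types (SD, n = 4 each), with a log2 fold change of 0.02 (95% interval -0.16 to 0.20, edgeR adjusted p = 0.947). Slc25a23 had 65.9, 61.3, 73.3 and 53.5 CPM in deleted libraries, against 63.9, 82.3, 75.0 and 74.1 CPM in wild types, overlapping groups with a log2 fold change of -0.22 ± 0.112 (edgeR adjusted p = 0.317). Slc25a24, also an ATP-Mg/phosphate carrier, measured 8.90, 7.52, 8.34 and 8.63 CPM in deleted libraries, against 9.91, 13.1, 10.4 and 10.5 CPM in wild types. Its groups did not overlap, yet at this low level the log2 fold change of -0.38 ± 0.196 gave an edgeR adjusted p of 0.313.

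Slc25a51, the NAD+ carrier (chromosome 4, 45395923 to 45408766), had the second smallest p. It measured 129, 109.9, 128 and 129 CPM in deleted libraries, against 102, 90.7, 111 and 104 CPM in wild types. Only deleted library 2 lay within the wild-type range; the log2 fold change was 0.29 ± 0.0876 (95% interval 0.11 to 0.47, edgeR unadjusted p = 0.00360, adjusted p = 0.0649). It passed the threshold in 5 of 10 other settings and in 1 of 8 fits that left out a library, that without deleted library 2.

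Slc25a33 measured 17.3, 16.6, 21.3 and 15.2 CPM in deleted libraries, against 14.01, 12.3, 13.7 and 14.8 CPM in wild types. The groups did not overlap, with a log2 fold change of 0.36 ± 0.165 (edgeR adjusted p = 0.253). Slc25a11, the oxoglutarate/malate carrier of the malate-aspartate shuttle, measured 52.2, 61.3, 57.2 and 60.4 CPM in deleted libraries, against 49.7, 44.9, 53.5 and 53.3 CPM in wild types. These groups overlapped at 1 deleted library, with a log2 fold change of 0.21 ± 0.102 (edgeR adjusted p = 0.289). Its partner in that shuttle, Slc25a12, averaged 68.3 ± 4.91 CPM in deleted libraries and 75.5 ± 6.83 CPM in wild types (SD, n = 4 each), a log2 fold change of -0.14.

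Further members with the smallest p did not pass the test either. Log2 fold changes were 0.34 for Slc25a16, a carrier linked to CoA (edgeR adjusted p = 0.426), -0.21 for Slc25a39 (adjusted p = 0.319), -0.28 for Slc25a14, a brain member related to the uncoupling proteins (adjusted p = 0.339), and -0.21 for Slc25a1 (adjusted p = 0.417). Of the abundant members, Slc25a44 averaged 75.3 ± 9.57 CPM in deleted libraries and 71.3 ± 5.20 CPM in wild types, and Slc25a36 65.0 ± 6.19 CPM in deleted libraries and 70.1 ± 9.16 CPM in wild types (SD, n = 4 each). Intervals lay within -0.5 to 0.5 for 21 of 36 members (58.3%), against 45.5% of all genes.

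**Figure D3:**
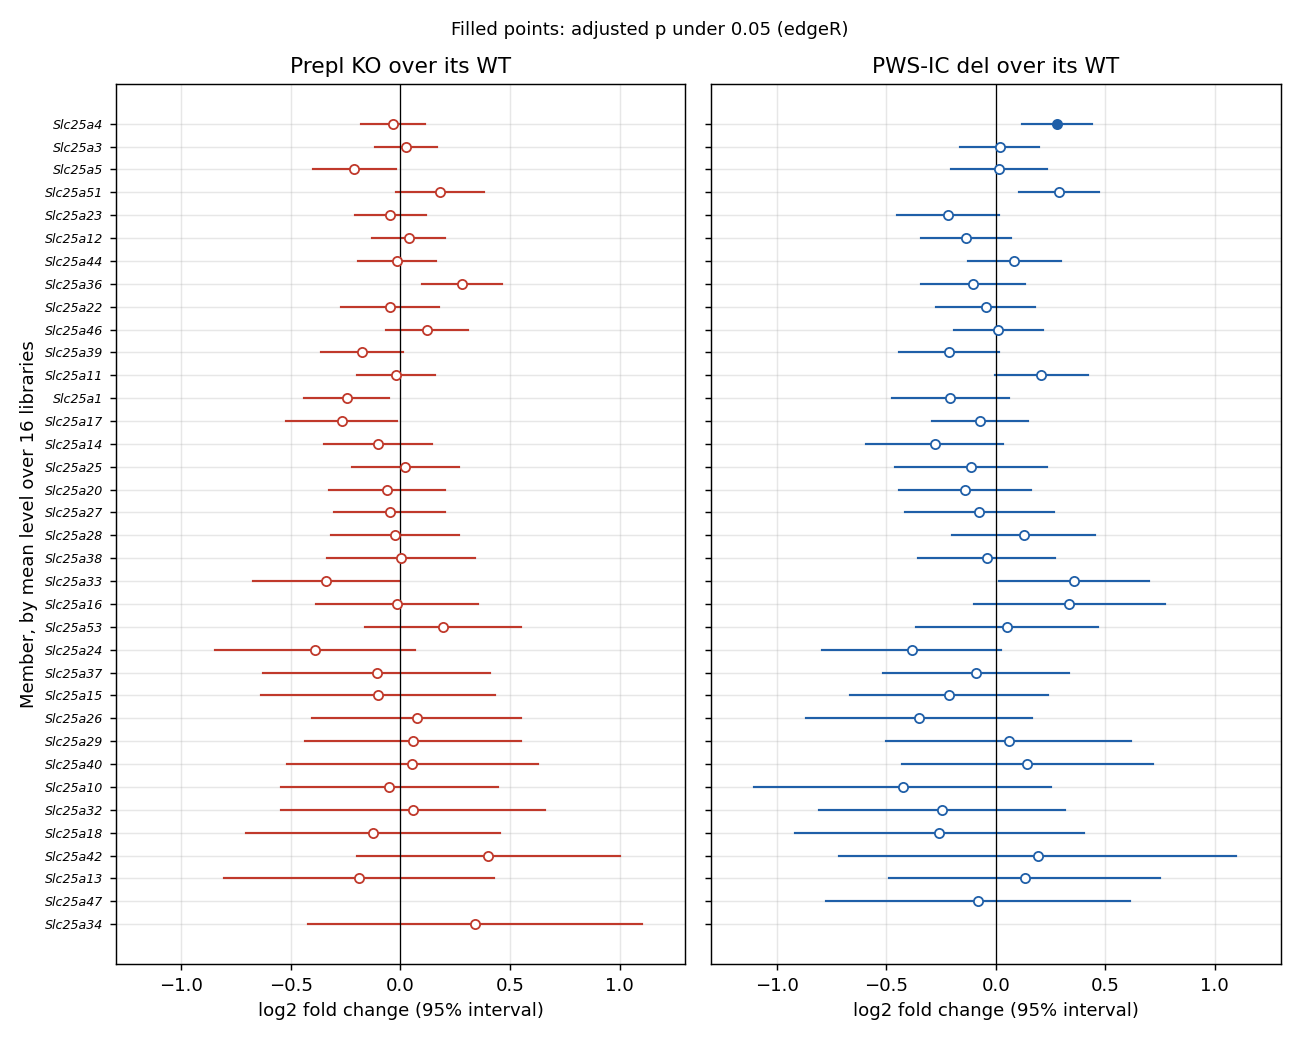
Log2 fold changes with 95% intervals for tested members in the Prepl comparison and the PWS-IC comparison. Slc25a4, at 0.28 in the PWS-IC comparison, is the single member with an adjusted p under 0.05.

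The family's share of reads in genes was 0.266% ± 0.00869 in deleted libraries and 0.246% ± 0.00216 in wild types (SD, n = 4 each), and without Slc25a4 it was 0.139% ± 0.00172 in deleted libraries and 0.141% ± 0.00417 in wild types. In the Prepl comparison the whole share was 0.244% ± 0.00744 in knockouts and 0.255% ± 0.0130 in wild types.

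Other measures moved with the PWS-IC groups. Reads aligned outside genes made up 17.7% to 20.1% of tabled reads in deleted libraries, against 11.4% to 13.7% in wild types. Messenger RNA of the mitochondrial genome made up 4.10% ± 0.238 of reads in genes in deleted libraries and 5.59% ± 0.452 in wild types (SD, n = 4 each). Summed red-cell markers reached 1202.8 to 1629.3 CPM in deleted libraries and 1795.6 to 3970.0 CPM in wild types, with 4 of 5 genes called lower. Summed meningeal markers reached 291 to 314 CPM in deleted libraries and 377 to 630 CPM in wild types, with 5 of 5 called lower, and choroid plexus markers 337 to 1617 CPM in deleted libraries and 1304 to 2069 CPM in wild types, with 1 of 3 called lower. Neuron markers summed to 923 to 999.5 CPM in deleted libraries and 911 to 1087 CPM in wild types, with 0 of 5 called. Striated muscle markers summed to 13.95 to 24.6 CPM in deleted libraries and 11.04 to 18.9 CPM in wild types, with 1 of 2 tested genes called higher. Oligodendrocyte markers summed to 83.2 to 93.5 CPM in deleted libraries and 93.9 to 101.8 CPM in wild types, with 1 of 4 tested genes called lower, and microglial markers to 46.7 to 71.6 CPM in deleted libraries and 54.5 to 82.8 CPM in wild types, with 1 of 5 called lower. Astrocyte, endothelial and brown fat lists held 0 called genes. Over all genes tested in this comparison, 2.96% were called higher and 1.55% lower. None of these lists was at 0, and the part of any of them in the Slc25a4 result was not tested. In bulk tissue, fewer cells of a type and less RNA per cell cannot be told apart.

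The 2 models were also set against each other, as the log2 fold change of the Prepl comparison minus that of the PWS-IC comparison in 1 fit of 16 libraries. Of 37 members tested, 0 passed, against 112 of 14392 genes (0.778%), and 3 (8.11%) had an unadjusted p under 0.05, against 11.7% of all genes; DESeq2 and limma voom also called 0. Slc25a33 gave a difference of -0.70 ± 0.221 (95% interval -1.15 to -0.25, edgeR adjusted p = 0.162), Slc25a4 of -0.32 ± 0.108 (95% interval -0.54 to -0.10, adjusted p = 0.193) and Slc25a36 of 0.38 ± 0.146 (95% interval 0.08 to 0.68, adjusted p = 0.270). With sex as a term the Slc25a4 difference passed (edgeR adjusted p = 0.0425).

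The wild types of the 2 models were set against each other in a comparison added after the data had been seen. It uses the same wild-type libraries as the comparisons above. Of 37 members, 5 (13.5%) were called between the PWS-IC wild types and the Prepl wild types, against 24.4% of all 14392 genes; 4 of them were higher in the PWS-IC wild types, where 12.3% of all genes were, and 1 lower, where 12.1% were. Colony, preparation and any batch cannot be told apart here.

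Slc25a51 measured 102, 90.7, 111 and 104 CPM in the PWS-IC wild types, against 59.9, 70.4, 73.5 and 58.1 CPM in the Prepl wild types, without overlap. Its log2 fold change was 0.68 ± 0.0943 (edgeR adjusted p = 4.13e-06).

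Slc25a23 (chromosome 17, 57043711 to 57059863, the chromosome of Prepl) was the 1 called member that was lower in the PWS-IC wild types. It measured 63.9, 82.3, 75.0 and 74.1 CPM there, against 126, 111, 108 and 102 CPM in the Prepl wild types, a log2 fold change of -0.55 ± 0.0969 (edgeR adjusted p = 0.000108). Slc25a36 averaged 70.1 ± 9.16 CPM in PWS-IC wild types and 50.7 ± 3.27 CPM in Prepl wild types (SD, n = 4 each), a log2 fold change of 0.52 ± 0.103 (edgeR adjusted p = 0.000402). Slc25a17 averaged 49.1 ± 0.714 CPM in PWS-IC wild types and 38.99 ± 5.18 CPM in Prepl wild types, a log2 fold change of 0.38 ± 0.114 (edgeR adjusted p = 0.0137). The Slc25a17 call was lost without Prepl wild-type library 2 (log2 fold change 0.29, edgeR adjusted p = 0.0833) and held in the other 7 fits without a library.

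**Figure D4:**
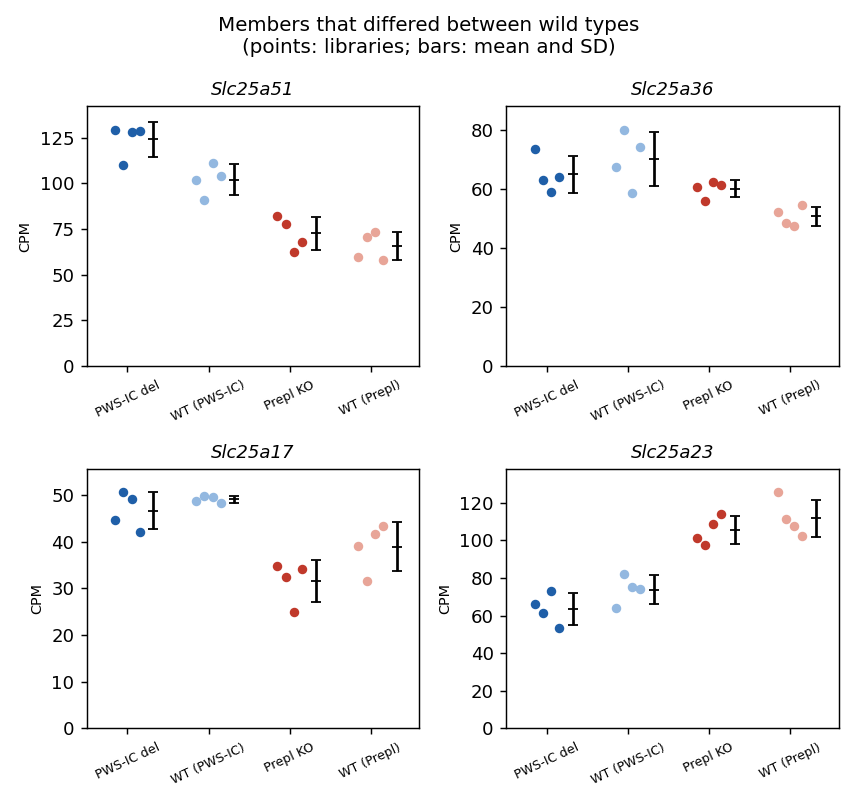
CPM of 4 members called between the wild-type groups, in every library (points) with the group mean and SD (bars), PWS-IC groups left of Prepl groups. For Slc25a51 the PWS-IC groups lie at 90.7 to 129 CPM and the Prepl groups at 58.1 to 82.2 CPM.

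Genes that work beside the carriers were read from lists of related genes. Among 21 tested of 22 other inner membrane transporters, 2 were called higher in PWS-IC deleted brain and 0 in Prepl knockouts. Of all genes tested, 2.96% were called higher in PWS-IC deleted brain, and 0.262% were called in either direction in Prepl knockouts. Letm1, an ion exchanger of the inner membrane, averaged 108 CPM in deleted libraries and 86.8 CPM in wild types, a log2 fold change of 0.32 ± 0.0869 (edgeR adjusted p = 0.0406, n = 4 each). Mpc2, a subunit of the pyruvate carrier, averaged 157 CPM in deleted libraries and 122 CPM in wild types, a log2 fold change of 0.37 ± 0.106 (edgeR adjusted p = 0.0495). The Letm1 call held in 9 of 10 other settings (adjusted p = 0.0801 with no filter) and, of 8 fits without a library, in that without wild-type library 2, with adjusted p of up to 0.124 in the rest. The Mpc2 call held in 8 of 10 other settings (adjusted p = 0.0634 with limma voom and 0.0510 with a filter of 1 CPM in 4 libraries) and in 3 of 8 fits without a library, those without wild-type library 2 or deleted library 3 or 4, with adjusted p of up to 0.162 in the rest.

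The outer membrane channels of the Vdac family, through which carrier substrates pass, held 0 called genes of 3 in either comparison. The share called over all genes tested was 4.52% in the PWS-IC comparison and 0.262% in the Prepl comparison. In PWS-IC deleted brain Vdac1 gave a log2 fold change of -0.25 ± 0.0905 (edgeR adjusted p = 0.125) and Vdac2 of 0.19 (adjusted p = 0.253). Vdac1 passed the threshold in 4 of 10 other settings, with no filter (adjusted p = 0.0467), the replicate block (0.0328), a sex term (0.0291) and a sex term in 1 fit of 16 libraries (0.0336), and in 0 of 8 fits without a library. In Prepl knockouts Vdac1 gave -0.13 (adjusted p = 0.568) and Vdac3 -0.22 (adjusted p = 0.599). Of 12 tested genes of TIM22 import, 0 were called; the smallest p belonged to the small Tim protein Timm9 in PWS-IC deleted brain (0.23, adjusted p = 0.239) and to the import receptor Tomm70a in Prepl knockouts (-0.15, adjusted p = 0.507), with the pore Tomm40 next in both (0.18 in PWS-IC deleted brain, 0.14 in Prepl knockouts). The 9 enzymes of the malate-aspartate and glycerol phosphate shuttles held 0 called genes, with Got1 at -0.18 in PWS-IC deleted brain and Got2 at 0.07 in Prepl knockouts. Of the carrier family genes under other symbols, Ucp2 and Mtch2 gave -0.22 and 0.15 in PWS-IC deleted brain and -0.21 and 0.05 in Prepl knockouts, with 0 of 3 tested genes called. Among other inner membrane transporters in Prepl knockouts, the calcium uniporter subunit Smdt1 gave -0.18 (adjusted p = 0.425) and the sideroflexin Sfxn5 -0.23 (adjusted p = 0.464). All values here are log2 fold changes from edgeR.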

How the data were processed

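RNA of 16 mouse brain libraries was counted by the authors, who deposited whole-number read counts per gene symbol for each library. HISAT2, HTSeq and mm10 are named in the submitters' processing notes; the strand setting, annotation and versions were not given in the sources used here, so antisense reads cannot be told apart. The 5 totals that name no gene stayed out of library sizes. Per library, 38.1% to 46.4% of tabled reads lay in genes. Depth limits precision for members under 50 reads in all, 8 of 47.

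CPM were computed from the counts over reads in genes. Tests used edgeR 4.0.16 under R 4.3.3: filterByExpr (minimum count 10, minimum total 15), TMM, quasi-likelihood F-test with p-values adjusted by Benjamini-Hochberg across every tested gene, each comparison on its own 8 libraries, and the difference and the wild-type contrast in 1 fit of 16. SE is the absolute log2 fold change over the square root of F. Scripts were tested on simulated data. Alternatives were DESeq2 1.42.0, limma 3.58.1 voom, other normalizations and filters, a replicate block, a sex term, 1 fit of 16 libraries and leaving out each library; the wild-type contrast and the 16-library sex term were added after seeing the data. Named genes were called members, the 5 smallest p per direction, the 8 most abundant members, members that failed the filter, and called genes or the 2 smallest p of each related list; genes whose results are not reported here stayed in all tests. Members and lists were chosen with earlier results of these data known. Coordinates are GENCODE M21.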

Additional observations from a re-analysis of the deposited data

Results flagged for a closer look

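In 24 named members and 4 groups, 96 sets of 4 libraries were searched for a library far from the other 3 (Dixon's criterion at the 95% level), and 3 met it; chance alone gives about 1 in 20 sets. Slc25a5 was lowest in PWS-IC deleted library 4, at 83.7 CPM against 114 to 116 CPM. Slc25a51 was lowest in PWS-IC deleted library 2, at 109.9 CPM against 128 to 129 CPM. Slc25a46 was lowest in 1 PWS-IC wild-type library, at 52.6 CPM, beside a group mean of 59.4 ± 4.51 CPM (SD, n = 4).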

How the results depend on the processing

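No member was called in the Prepl comparison under any of 10 other settings or 8 fits without a library, while the count over all genes, 36, became 156 with no filter, 6 with a sex term, 18 in 1 fit of 16 libraries, and 12 to 103 without a library (12 without wild-type library 2, 103 without wild-type library 1, and 16 to 23 without wild-type library 3 or knockout library 1, 2 or 4). In the PWS-IC comparison 616 genes became 945 with no filter, 989 with the replicate block, 1119 with a sex term, 999 in 1 fit of 16 libraries, 1233 there with a sex term, and 362 to 653 without a library (362 without deleted library 1, 394 without wild-type library 3); 2 members, Slc25a4 and Slc25a51, were called with DESeq2, the replicate block, a sex term, 1 fit of 16 libraries and that fit with a sex term, and 0 to 1 without a library. For the difference between models 112 genes became 169 with DESeq2, 222 with no filter, 235 with a sex term and 67 to 134 without a library (67, 73 and 74 without Prepl wild-type library 2 or 3 or knockout library 3); 1 member, Slc25a4, was called with a sex term and none in 16 fits without a library. The wild-type contrast called 5 members in 7 of 7 other settings and 4 to 7 without a library. In both PWS-IC groups libraries 1 and 2 were male and libraries 3 and 4 female. The replicate numbers thus carry sex there, and the main fit held no sex term. Same-numbered libraries did not deviate together throughout (r of -0.03, -0.06, 0.02 and 0.07 in the Prepl comparison; 0.01, 0.26, 0.27 and 0.21 in the PWS-IC comparison, where the libraries numbered 2 and 3 correlated best with their own number), so the replicate numbers were not taken as pairs.

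Among the named genes, 25 values changed sign (log2 fold changes), and the cause was not tested. In the Prepl comparison Got2 gave -0.0092 and Mtch2 -0.043 in 1 fit of 16 libraries with a sex term, which also turned Slc25a3 to -0.056 and Slc25a44 to 0.075. A sex term turned Mtch2 to -0.00964, Slc25a23 to 0.073, Slc25a44 to 0.042 and Ucp2 to 0.40. In the PWS-IC comparison Slc25a3 gave -0.0032 with no filter, and Slc25a5 -0.00626 with no filter and -0.0072 with limma voom. Fits without a library spanned -0.083 to 0.015 for Slc25a23 in the Prepl comparison, -0.012 to 0.064 for Slc25a3 in the Prepl comparison, -0.10 to 0.0045 for Slc25a4 in the Prepl comparison, -0.053 to 0.040 for Slc25a44 in the Prepl comparison, -0.018 to 0.10 for Slc25a3 in the PWS-IC comparison, -0.037 to 0.13 for Slc25a5 in the PWS-IC comparison. Members under 50 reads failed the filter and were not tested in the main fits.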
